A study of Homo sapiens with 4 samples.

Results

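Genes of autophagy, of the lysosomal proton pump and of the lysosomal cathepsins were measured in K562 cells with and without a hairpin against KLF3. The rule for the set names current gene symbols and no measured value, though it was written with earlier results of these data known: symbols that begin with ATG and a digit, ATP6V, GABARAP, MAP1LC3, LAMP or LAMTOR, the cathepsins CTSA, CTSB, CTSC, CTSD, CTSH, CTSL, CTSS and CTSZ, and ULK1, BECN1, SQSTM1, TFEB, MCOLN1, WIPI1 and WIPI2. The rule matched 108 symbols, of which 72 were protein-coding genes, 29 pseudogenes and 7 long non-coding RNAs. Probes were present for 68 of them, out of 20045 genes with a probe, and 54 were detected well enough to be tested, out of 9530 tested genes.

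K562 is a human erythroleukemia line, from a patient with chronic myeloid leukemia, which carries BCR-ABL and makes embryonic and fetal globins. Both groups are stable K562 lines that express a short hairpin RNA, 1 with a control hairpin (2 arrays) and 1 with a hairpin against KLF3 (2 arrays), cultured in RPMI1640 with serum, and the labels name no further treatment. KLF3, a Krüppel-like factor, mostly represses transcription, and the comparison asks which transcripts differ when it is depleted. Each group stands for 1 line, and the second array of each carries the word Repeat, so the p-values below rest on array-to-array spread that may be technical.

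In macroautophagy a kinase complex around ULK1 starts a membrane sac, a lipid kinase around BECN1 marks it, ATG9A and ATG2A bring lipid, and ubiquitin-like conjugation systems attach ATG8 proteins such as LC3B and GABARAP to the growing membrane. The finished autophagosome fuses with the lysosome, where a proton pump, made of a cytosolic V1 sector that splits ATP and a membrane V0 sector that carries protons, acidifies the lumen in which cathepsins digest protein. The Ragulator scaffold of LAMTOR proteins joins the pump to mTORC1 on the lysosomal surface, and TFEB, a basic helix-loop-helix factor, switches on many of these genes through CACGTG-containing sites. In maturing red cells autophagy removes mitochondria and other organelles.

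KLF3 itself could not be checked: both of its probes were undetected on all 4 arrays, with intensities of 136 ± 9.76 and 122 ± 5.33 in the control group against 139 ± 0.265 and 124 ± 4.68 in the knockdown group (SD, n = 2). Detected probes numbered 15479 to 16182 per array. The 10 K562 identity markers with a probe were all detected, and 5 rose and 1 fell. None of 5 lymphocyte and 6 fibroblast markers was detected. Of 10 monocyte and macrophage markers 4 were detected (CD14, CD68, ITGAM and LYZ), and their list's summed intensity ran from 2009 to 2064 with the control hairpin and from 2587 to 2803 with the KLF3 hairpin; LYZ rose by 1.88 and CD14 by 0.47 on the log2 scale. CSF1R, CD163, MARCO, MSR1, VSIG4 and C1QA were not detected. EPCAM and KRT19, of 5 epithelial markers, were detected and did not pass. The part of these markers in the results was not tested, and in bulk RNA fewer cells of a type and less RNA per cell cannot be told apart.

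Of the 54 tested genes 14 rose and 15 fell in the knockdown line, and the other 25 did not pass (limma, Benjamini-Hochberg adjusted over 9530 genes, threshold 0.05). That is 53.7% of them, against 40.0% of all genes, of which 19.4% rose and 20.7% fell. Their median log2 fold change was -0.05, against -0.01 for all genes, and their median absolute log2 fold change was 0.29 against 0.24. The knockdown and control arrays did not overlap for 45 of the 54, where 73.5% of all genes show this. By fitted fold, which includes genes undetected in 1 group, 6 of the 54 reached 1.5-fold (13.9% of all genes did), and 1, CTSH, reached 2-fold. WIPI1 is 1 of the 6, although it was undetected in the knockdown group and has only a bound there. The set thus held changes in both directions in nearly equal number.

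**Figure D1:**
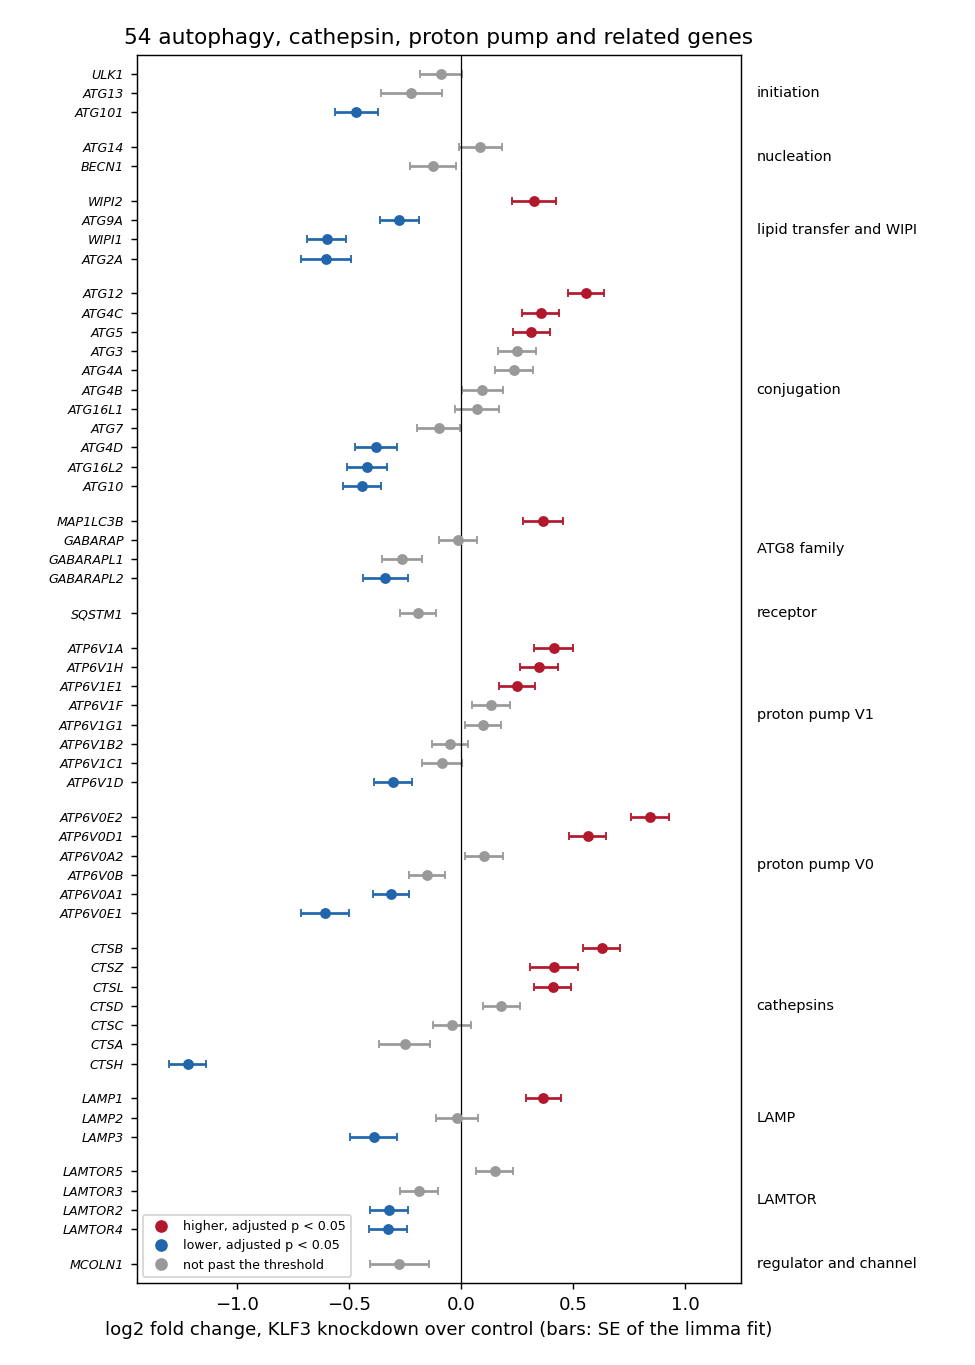
Log2 fold change of the 54 tested genes, KLF3 knockdown over control, grouped by role, with points for the limma estimate and bars for its standard error (2 arrays per group). Red marks the 14 genes that rose, blue the 15 that fell and grey the 25 that did not pass; CTSH at -1.22 and ATP6V0E2 at 0.84 are the outermost points.

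Leaving out 1 array at a time removed calls among the 29 changed genes, more for a control array than for a knockdown array. Over all tested genes fewer genes passed in these runs too, and whether the loss was larger in this set was not tested. Each such fit leaves 1 array in a group, and the spread then comes from the other group's pair alone. None of the 29 changed sign in these runs, but none could, since the control and knockdown arrays did not overlap for any of them. ATG12, ATP6V0D1, ATP6V0E2, CTSB and CTSH passed under every alternative. WIPI1 passed under each alternative that gave it a value, but it was undetected in the knockdown group. Requiring detection on all arrays therefore removed WIPI1, so that setting could not test it. Over the remaining alternatives the WIPI1 difference ran from -0.67 to -0.20 on the log2 scale, so its size depended on the setting.

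Promoter sequences, picked after values and matches were seen, are shown for 3 genes. CTSH had the largest fall and ATP6V0E2 the largest rise, and the window of LAMP1 held CACGTG 5 times. Each run gives the 250 bases before the annotated start on the gene's own strand, 5′ to 3′, from RefSeq (GRCh38.p14), with CACGTG and CACCC in capitals wherever they occur on either strand. CACGTG is the core that TFEB-family factors recognise, and CACCC boxes are recognised by Krüppel-like factors. The windows are chr15:78945047-78945296 (minus strand) for CTSH, chr7:149872718-149872967 (plus strand) for ATP6V0E2 and chr13:113296989-113297238 (plus strand) for LAMP1.
CTSH: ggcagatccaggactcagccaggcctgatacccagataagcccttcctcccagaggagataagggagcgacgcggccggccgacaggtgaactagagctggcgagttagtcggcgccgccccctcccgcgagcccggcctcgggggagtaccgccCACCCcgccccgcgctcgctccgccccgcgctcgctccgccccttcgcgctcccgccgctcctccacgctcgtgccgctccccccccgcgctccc
ATP6V0E2: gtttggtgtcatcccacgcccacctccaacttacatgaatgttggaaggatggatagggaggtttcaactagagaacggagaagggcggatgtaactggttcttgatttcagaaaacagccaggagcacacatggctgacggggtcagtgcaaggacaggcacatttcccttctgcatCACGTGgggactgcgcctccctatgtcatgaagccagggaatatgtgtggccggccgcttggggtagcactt
LAMP1: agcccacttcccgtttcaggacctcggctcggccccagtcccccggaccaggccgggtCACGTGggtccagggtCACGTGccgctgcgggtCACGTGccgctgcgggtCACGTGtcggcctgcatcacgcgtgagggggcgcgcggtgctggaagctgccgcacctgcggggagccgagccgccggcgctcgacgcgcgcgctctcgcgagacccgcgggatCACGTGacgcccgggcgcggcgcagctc

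The CTSH window held 1 CACCC and no CACGTG, that of ATP6V0E2 held 1 CACGTG and no CACCC, and that of LAMP1 held 5 CACGTG. RefSeq windows matched 45 of the 54 tested genes and 7841 of all tested genes. CACGTG, which reads the same on both strands, lay in 11 of the 45 windows (24.4%), in 9.25% of the windows of all tested genes and in 6.49% of all 27305 windows. The 11 were those of ATG14, ATG3, ATP6V0B, ATP6V0D1, ATP6V0E2, ATP6V1G1, CTSA, CTSD, LAMP1, LAMTOR4 and MCOLN1. Among these ATP6V0D1, ATP6V0E2 and LAMP1 rose, LAMTOR4 fell and the other 7 did not pass. Of 23 changed genes with a window, 4 thus held CACGTG. The longer TCACGTGA, which overlaps CACGTG, was in 5 windows (11.1%) and in 1.93% of those of tested genes. CACCC, searched on both strands, lay in 24 windows (53.3%) and in 57.2% of those of all tested genes. CCACACCC, which overlaps it, was in 0 of the 45 windows and in 2.68% of those of tested genes. A match describes letters only.

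Cathepsins moved apart. CTSB, CTSL and CTSZ rose, CTSH fell, and CTSA, CTSC and CTSD did not pass. Thus 4 of 7 tested members changed (57.1%, against 40.0% of all genes). CTSH encodes cathepsin H, a cysteine protease that trims amino acids from the N-terminus of proteins. Its normalised log2 signals were 12.12 and 12.04 with the control hairpin, against 10.83 and 10.88 with the KLF3 hairpin. Both knockdown values lay below both control values, far beyond the spread between replicates. The fall was 1.22 (SE 0.08, limma adjusted p = 0.000326), or 2.33-fold. The second CTSH probe gave a difference of -1.22 as well.

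CTSB encodes cathepsin B, a cysteine protease with endopeptidase activity. It read 10.09 and 10.15 with the control hairpin, against 10.78 and 10.71 with the KLF3 hairpin, so that both knockdown values lay above both control values. The rise was 0.63 (SE 0.08, limma adjusted p = 0.0027), or 1.54-fold, and its second probe gave 0.59. CTSL, encoding the endopeptidase cathepsin L, read 12.24 and 12.32 in control cells, against 12.70 and 12.68 in knockdown cells. It rose by 0.41 (SE 0.08, limma adjusted p = 0.0109), and its other probes gave 0.57 and 0.58. CTSZ, encoding the carboxypeptidase cathepsin Z, read 7.28 and 7.48 against 7.89 and 7.71 and rose by 0.42 (SE 0.11, limma adjusted p = 0.0255), or by 0.26 without background correction.

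CTSD, the aspartic protease cathepsin D, differed by 0.18, CTSC, which activates granule serine proteases, by -0.04, and CTSA, a carboxypeptidase that also protects lysosomal sialidase, by -0.25. CTSC had 4 detected probes, with differences of -0.09 to 0.69, the highest on a probe that the control arrays did not detect. CTSS, the cathepsin of antigen-presenting cells, was undetected on all arrays (110 ± 1.92 and 108 ± 0.928 intensity units, SD, n = 2). Without control replicate 1 or 2 the adjusted p (limma) of CTSL were 0.0785 and 0.0521 and those of CTSZ 0.147 and 0.0528. Without knockdown replicate 1 that of CTSZ was 0.0776, and with median scaling it was 0.0919.

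**Figure D2:**
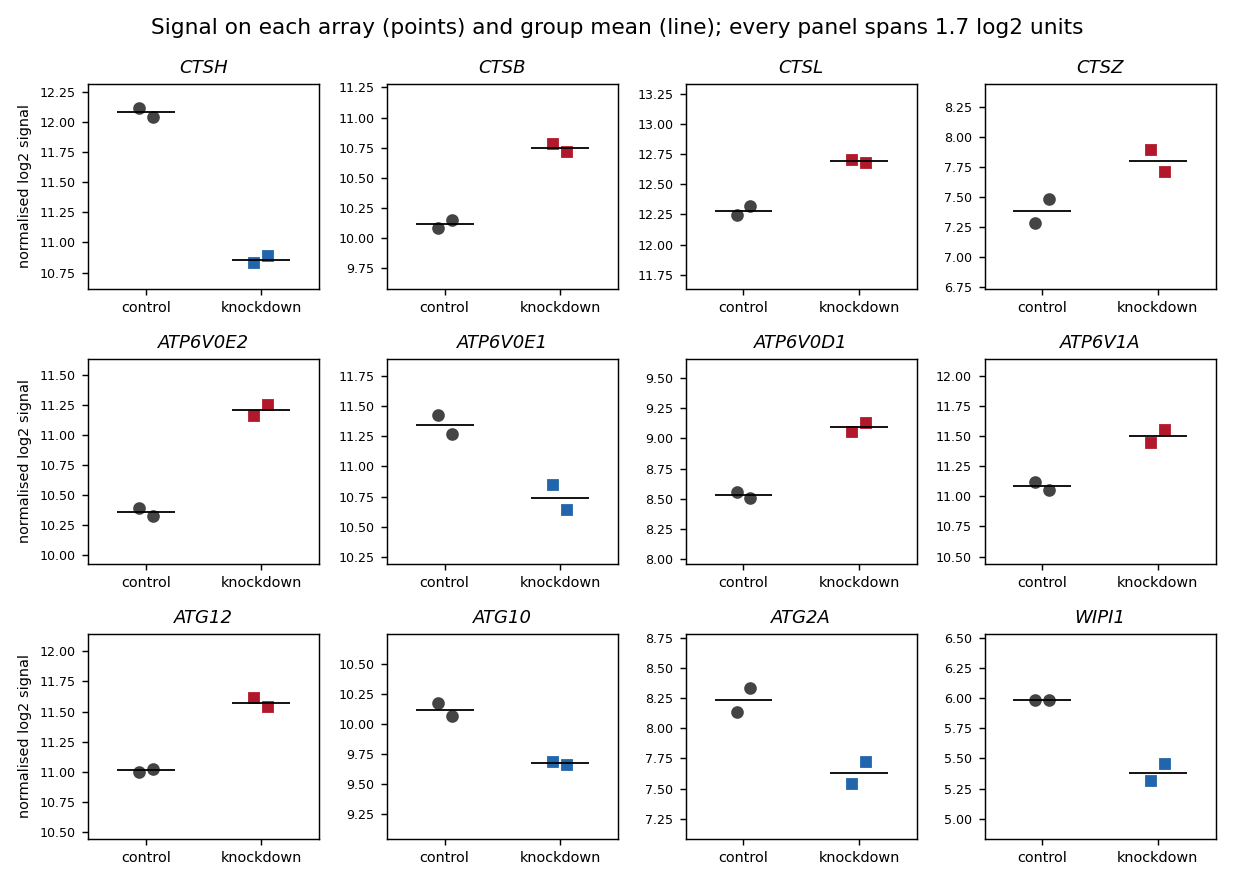
Normalised log2 signal on each array for 12 genes picked after their values were seen, with circles for the 2 control arrays, squares for the 2 knockdown arrays (red higher, blue lower) and a line at each group's mean. In every panel the groups are separate, as for 73.5% of all genes, widest for CTSH, from 12.08 to 10.86 in the means.

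Membrane sector genes of the proton pump changed in opposite directions, including those of the alternative e subunits. Of 6 tested V0 genes 2 rose and 2 fell (66.7%, against 40.0% of all genes). ATP6V0E2 encodes the second form of the small membrane subunit e. It read 10.39 and 10.33 with the control hairpin, against 11.16 and 11.25 with the KLF3 hairpin, without overlap. Its rise was 0.84 (SE 0.08, limma adjusted p = 0.00115), or 1.79-fold. ATP6V0E1, the gene of the widely expressed form of subunit e, read 11.43 and 11.27 in control cells, against 10.84 and 10.64 in knockdown cells. It fell by 0.61 (SE 0.11, limma adjusted p = 0.0072), and by 0.82 on its second probe. The e subunits thus moved apart at the transcript level. Their groups did not overlap, which was also the case for all 6 tested V0 genes and for 73.5% of all genes.

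ATP6V0D1, whose product d1 couples the rotor to the proteolipid ring, read 8.55 and 8.50 against 9.06 and 9.13 and rose by 0.56 (SE 0.08, limma adjusted p = 0.00377). ATP6V0A1, which encodes a form of the large proton-conducting subunit a, fell by 0.31 (SE 0.08, limma adjusted p = 0.0238). ATP6V0A2, another form of subunit a, differed by 0.10, and ATP6V0B, a proteolipid of the ring, by -0.15; neither passed. ATP6V0D2, a form of subunit d found in osteoclasts, was undetected on all arrays. ATP6V0E1 had a limma adjusted p of 0.0549 without control replicate 1, and those of ATP6V0A1 were 0.13, 0.0958 and 0.0569 without control replicate 1, control replicate 2 and knockdown replicate 1.

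In the cytosolic sector 3 of 8 tested genes rose and 1 fell. ATP6V1A, the catalytic subunit A that binds ATP, read 11.12 and 11.05 with the control hairpin, against 11.44 and 11.55 with the KLF3 hairpin. It rose by 0.41 (SE 0.09, limma adjusted p = 0.0126). ATP6V1H, a regulatory subunit that holds the detached V1 sector inactive, rose by 0.35 (limma adjusted p = 0.0215), and its second probe gave 0.68. ATP6V1E1, part of the peripheral stalk, rose by 0.25 (limma adjusted p = 0.0492), with 0.24 on the second probe. ATP6V1D, of the central rotor, read 9.80 and 9.87 against 9.58 and 9.49 and fell by 0.30 (limma adjusted p = 0.0323). The groups were separate for each of these 4 genes, as they were for all 8 tested genes of this sector and for 73.5% of all genes.

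ATP6V1B2, the non-catalytic subunit B, differed by -0.05, ATP6V1C1 by -0.09, ATP6V1G1 by 0.10 and ATP6V1F by 0.13, and none passed. The forms of restricted tissues, ATP6V1B1, ATP6V1C2, ATP6V1G2 and ATP6V1G3, were undetected. The limma adjusted p of ATP6V1A, ATP6V1D, ATP6V1E1 and ATP6V1H without control replicate 1 were 0.0589, 0.103, 0.142 and 0.134, and without control replicate 2 they were 0.0846, 0.166, 0.214 and 0.0626. Without knockdown replicate 1 those of ATP6V1E1 and ATP6V1H were 0.107 and 0.0509, and without knockdown replicate 2 those of ATP6V1D and ATP6V1E1 were 0.0957 and 0.0928. With median scaling ATP6V1E1 and ATP6V1H did not pass (0.117 and 0.0665).

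The initiation and nucleation genes changed little, apart from ATG101. ATG101, which stabilises ATG13 in the ULK1 complex, read 9.93 and 9.75 with the control hairpin, against 9.33 and 9.41 with the KLF3 hairpin. It fell by 0.47 (SE 0.10, limma adjusted p = 0.0113), with an adjusted p of 0.0776 without control replicate 1. ULK1, the initiating kinase, read 9.62 and 9.44 against 9.42 and 9.45, a difference of -0.09 (SE 0.09, limma adjusted p = 0.471) with overlapping groups, and ATG13 differed by -0.22 (SE 0.14, limma adjusted p = 0.23). BECN1, the scaffold of the lipid kinase complex, read 9.72 and 9.55 against 9.59 and 9.42, a difference of -0.12 (SE 0.10, limma adjusted p = 0.369). ATG14, which directs that complex to the forming autophagosome, differed by 0.09.

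All 4 tested genes of lipid supply and phosphoinositide sensing passed, 3 lower and 1 higher, where 40.0% of all genes passed. A group of 4 genes cannot be read as a share. ATG2A, a lipid transfer protein, read 8.13 and 8.34 with the control hairpin, against 7.54 and 7.72 with the KLF3 hairpin and fell by 0.60 (SE 0.11, limma adjusted p = 0.00787). WIPI1 binds the phosphoinositide made by the BECN1 complex. It read 5.99 and 5.98 against 5.31 and 5.45, was not detected on either knockdown array, and was at least 1.30-fold lower. The limma adjusted p of its fitted difference was 0.00373. A bound of this kind sets the mean of the group that detects the gene against the higher, per array, of its own signal there and the dimmest detected one. Without background correction the WIPI1 difference was -0.20 on the log2 scale, smaller than that bound. WIPI2, its relative that recruits ATG16L1, moved the other way, from 7.60 and 7.44 to 7.78 and 7.91, a rise of 0.33 (SE 0.10, limma adjusted p = 0.0389). ATG9A, the membrane-spanning lipid scramblase, fell by 0.28 (limma adjusted p = 0.0446).

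WIPI1 and WIPI2 thus differed in opposite directions. ATG2A had a limma adjusted p of 0.0567 without control replicate 2. Those of WIPI2 were 0.0748, 0.206 and 0.12 without control replicate 1, control replicate 2 and knockdown replicate 2, and 0.131 with median scaling. Those of ATG9A were 0.226, 0.0979, 0.108 and 0.0758 without control replicate 1, control replicate 2, knockdown replicate 1 and knockdown replicate 2. WIPI2 rose by 0.21 without background correction and with the authors' processed values. ATG2B and ATG9B were not tested, ATG2B being detected on 1 control array and ATG9B on none.

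Conjugation genes divided evenly, with 3 of 11 higher, 3 lower and 5 that did not pass (54.5% changed, against 40.0% of all genes). ATG12 is the ubiquitin-like protein that is joined to ATG5. It read 11.00 and 11.03 with the control hairpin, against 11.61 and 11.54 with the KLF3 hairpin, and rose by 0.56 (SE 0.08, limma adjusted p = 0.00377). Its second probe gave 0.56 too. ATG5, the acceptor of ATG12, rose by 0.31 (limma adjusted p = 0.0264), from 7.42 and 7.46 to 7.71 and 7.79. ATG10, the enzyme that transfers ATG12 to ATG5, went the other way. It read 10.17 and 10.07 against 9.69 and 9.66 and fell by 0.44 (SE 0.08, limma adjusted p = 0.00915), with -0.48 on its second probe.

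Among the ATG4 proteases, which trim ATG8 proteins before conjugation and release them afterwards, ATG4C rose by 0.36 (limma adjusted p = 0.0175) and ATG4D fell by 0.38 (limma adjusted p = 0.0204), with -0.10 on its second probe. ATG4A and ATG4B differed by 0.24 and 0.10 and did not pass. ATG16L2, a relative of the ATG12-ATG5 partner ATG16L1, was not detected on the knockdown arrays and was at least 1.11-fold lower. The limma adjusted p of its fitted difference was 0.0129. Its call was lost without background correction, where the log2 difference was -0.14 (limma adjusted p = 0.0979), smaller than that bound. ATG3 and ATG7, the enzymes of LC3 conjugation, differed by 0.25 and -0.10, and ATG16L1 by 0.07 on the probe used and -0.20 on another.

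Several of these calls were lost when 1 array was left out, those of ATG4C, ATG4D and ATG5 with either control array. Such a fit has fewer arrays, so a lost call does not show that 1 array carried the difference. The limma adjusted p of ATG10, ATG4C, ATG4D and ATG5 without control replicate 1 were 0.0696, 0.0681, 0.128 and 0.134. Without control replicate 2 those of ATG16L2, ATG4C, ATG4D and ATG5 were 0.0891, 0.11, 0.0512 and 0.107. Without knockdown replicate 1 that of ATG4D was 0.0558, and without knockdown replicate 2 that of ATG5 was 0.0784. With median scaling ATG4C and ATG5 did not pass (0.0579 and 0.112). Without background correction the log2 differences of ATG4D and ATG5 were smaller, -0.24 and 0.20, and both passed.

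In the ATG8 family, whose proteins coat the autophagosome and bind its cargo receptors, MAP1LC3B rose and GABARAPL2 fell. MAP1LC3B, the gene of LC3B, read 9.91 and 9.79 with the control hairpin, against 10.26 and 10.18 with the KLF3 hairpin and rose by 0.36 (SE 0.09, limma adjusted p = 0.0207). Its close copy MAP1LC3B2 was undetected, and the probe cannot be assigned to 1 of them with certainty. GABARAPL2 read 11.22 and 11.22 against 10.99 and 10.77 and fell by 0.34 (SE 0.10, limma adjusted p = 0.0376). Its second, dimmer probe differed by 0.65 in the opposite direction and was detected on 1 of the control arrays, so the gene's direction rests on the probe. With the mean of its probes GABARAPL2 differed by 0.16 (adjusted p = 0.667).

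GABARAP differed by -0.01 and GABARAPL1, whose probe could also read its near-copy GABARAPL3, by -0.26 (limma adjusted p = 0.0573), whereas MAP1LC3A and MAP1LC3C were undetected. SQSTM1, the p62 cargo receptor that is itself degraded by autophagy, read 11.68 and 11.68 against 11.50 and 11.47. The groups did not overlap, but the difference of -0.19 (SE 0.08, limma adjusted p = 0.0983) missed the threshold. It passed without background correction (0.0292), with the authors' processed values (0.0266) and with an intensity trend (0.0207). The limma adjusted p of MAP1LC3B were 0.0619, 0.128 and 0.0586 without control replicate 1, control replicate 2 and knockdown replicate 1, and 0.0533 with median scaling. Those of GABARAPL2 were 0.147, 0.146 and 0.12 without control replicate 1, control replicate 2 and knockdown replicate 2, and 0.0554 with median scaling.

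Lysosomal membrane glycoproteins split as well. LAMP1, a main coat protein of the lysosomal membrane, read 10.65 and 10.69 with the control hairpin, against 11.04 and 11.04 with the KLF3 hairpin, and rose by 0.37 (SE 0.08, limma adjusted p = 0.0138). LAMP3, an inducible relative, read 7.19 and 7.15 against 6.90 and 6.66 and fell by 0.39 (SE 0.10, limma adjusted p = 0.0277), or by 0.21 without background correction. LAMP2, needed for fusion of autophagosomes with lysosomes, differed by -0.02 with overlapping groups, and its 5 other detected probes ranged from -0.10 to 0.32. LAMP5 was undetected. LAMP1 and LAMP3 did not pass without control replicate 1 (limma adjusted p = 0.0873 and 0.134) or control replicate 2 (0.0707 and 0.105), and LAMP3 did not pass without knockdown replicate 2 (0.0815).

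Ragulator genes had 0 higher and 2 lower of 4 tested, where 40.0% of all genes changed. LAMTOR2, which forms a dimer with LAMTOR3, read 12.56 and 12.49 with the control hairpin, against 12.17 and 12.24 with the KLF3 hairpin and fell by 0.32 (SE 0.08, limma adjusted p = 0.0255), with -0.55 on its second probe. LAMTOR4 read 10.61 and 10.54 against 10.20 and 10.29 and fell by 0.33 (SE 0.08, limma adjusted p = 0.0248). LAMTOR3 differed by -0.19, and by 0.24 on a dimmer probe, and LAMTOR5, the dimer partner of LAMTOR4, by 0.15; neither passed. The limma adjusted p of LAMTOR2 were 0.143, 0.0868 and 0.0714 without control replicate 1, control replicate 2 and knockdown replicate 1, and those of LAMTOR4 were 0.137, 0.0895 and 0.0715.

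TFEB was undetected on all 4 arrays, at 130 ± 2.78 intensity units with the control hairpin and 129 ± 2.47 with the KLF3 hairpin (SD, n = 2), so its level could not be compared. MCOLN1, the lysosomal calcium channel whose opening activates TFEB, read 7.14 and 7.26 against 6.75 and 7.10. The groups did not overlap and the difference was -0.28 (SE 0.13, limma adjusted p = 0.137). Leaving out 1 array at a time gave -0.10 (adjusted p = 0.488, without knockdown replicate 1) to -0.45 (adjusted p = 0.0241, without knockdown replicate 2), so the size rested on single arrays. Without background correction it was -0.15 (adjusted p = 0.107), and with median scaling -0.37 (adjusted p = 0.0423). Genes without a probe under their own symbol, ATP6V0A4, ATP6V0C, ATP6V1E2, LAMTOR1 and MAP1LC3BP1, were not analysed here, and the antisense RNA LAMTOR5-AS1 had a probe that no array detected.

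Where a gene had several detected probes, they mostly moved together. Of 20 such genes 14 had the same sign on every detected probe, and of the 13 among them that changed 12 did, GABARAPL2 being the exception.

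**Figure D3:**
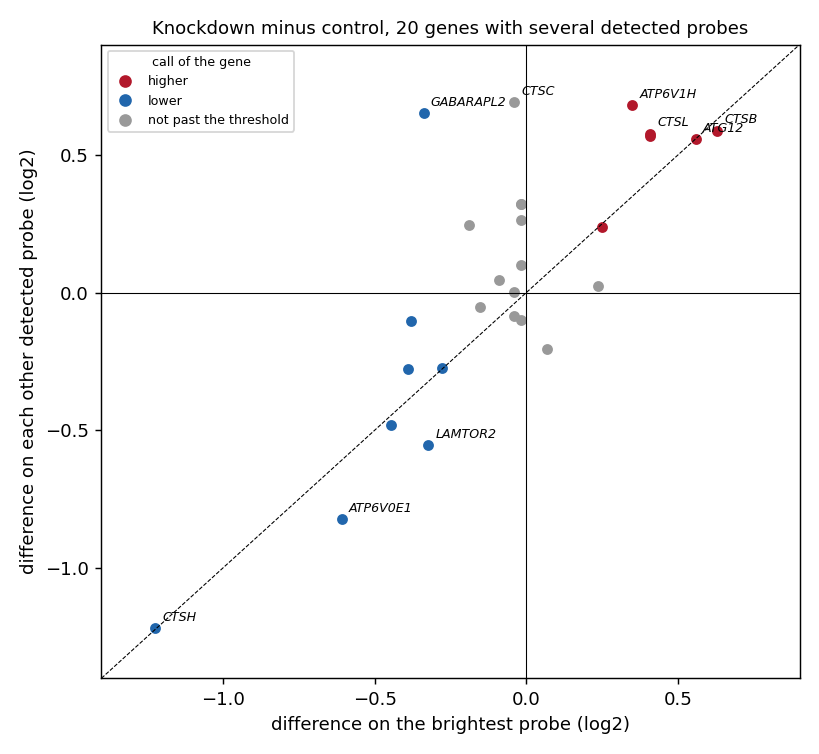
Difference between knockdown and control (log2) on the brightest probe of a gene, horizontally, and on each of its other detected probes, vertically, for the 20 genes with several detected probes; the dashed line marks equality. CTSH, CTSB and ATG12 lie close to the line, and GABARAPL2 lies in the opposite quadrant at -0.34 and 0.65.

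Some members lay among chromosomal neighbours that shifted together. On chromosome 16, 256 of 458 tested genes rose and 23 fell, with a median log2 fold change of 0.36. Its 3 tested members all passed: ATP6V0D1 and MAP1LC3B rose, and GABARAPL2 fell. The 20 tested genes nearest to ATP6V0D1 in chromosome order had a median of 0.32, those around MAP1LC3B 0.31 and those around GABARAPL2 0.31. The rise of MAP1LC3B exceeded its neighbours' median by 0.06 and that of ATP6V0D1 by 0.25, whereas GABARAPL2 lay 0.65 below its neighbours. ATP6V0E2, on chromosome 7, had neighbours with a median of 0.25, of which 10 of 20 rose and 0 fell, and exceeded them by 0.59. ATG101, on chromosome 12, fell by as much as its neighbours, whose median was -0.48 with 13 of 20 lower. ATG10, on chromosome 5, had neighbours with a median of -0.23, of which 8 of 20 fell and 4 rose, and lay 0.21 below that median. For CTSH and CTSB the neighbours' medians were -0.01 and -0.05, and for ATG12 0.07. The part of these chromosomal shifts in the results was not tested.

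**Figure D4:**
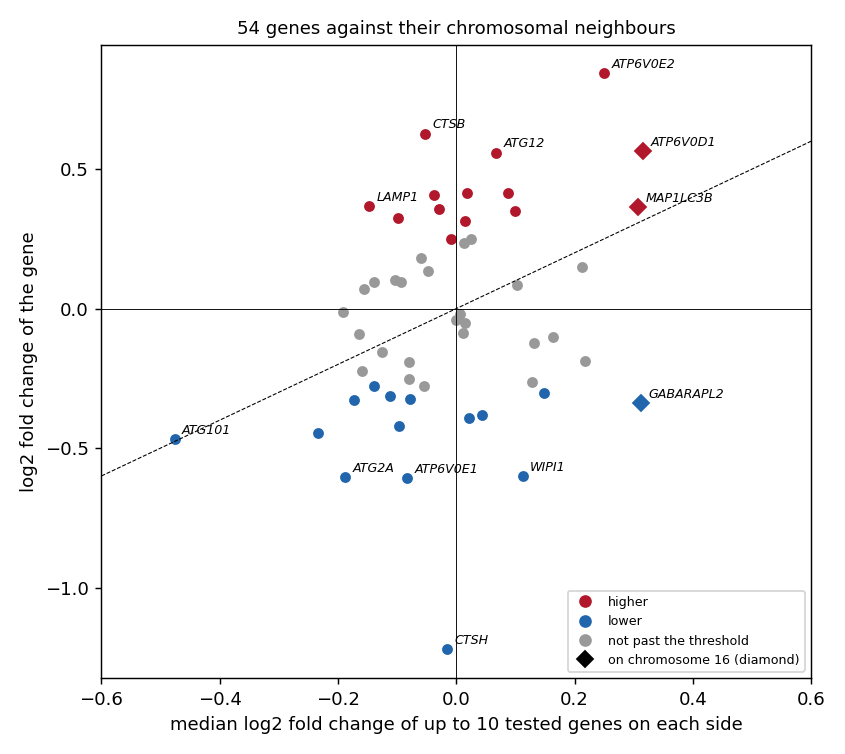
Log2 fold change of each of the 54 tested genes, vertically, against the median log2 fold change of up to 10 tested genes on each side of it in chromosome order, horizontally; the dashed line marks equality and diamonds mark chromosome 16. ATG101 and MAP1LC3B lie near the line, whereas CTSH, CTSB, ATP6V0E1 and WIPI1 lie far from it.

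Other genes of autophagy and the lysosome were set beside these in 10 lists with 189 genes that are not members, of which 147 were tested, 31 rose and 30 fell (41.5%, against 40.0% of all genes). Their median log2 fold change was 0.02. By list, the share that changed ran from 0% (8 ULK complex and nutrient kinase genes) to 77.8% (9 genes of other cathepsins, legumain and cystatins). The most changed single gene among them processes cathepsins. LGMN encodes legumain, an asparaginyl endopeptidase that cleaves single-chain cathepsins B, H and L into their two-chain forms. It read 6.66 and 6.74 with the control hairpin, against 8.99 and 9.09 with the KLF3 hairpin, far apart. It rose by 2.34 (SE 0.09, limma adjusted p = 3.94e-05), or 5.07-fold.

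Of 9 tested genes of other cathepsins, legumain and cystatins 5 rose and 2 fell, among them CTSV, a close relative of CTSL, 1.64-fold higher, and CTSK, the bone-degrading cathepsin, at least 1.26-fold lower and undetected in the knockdown group. Of 12 accessory and assembly genes of the proton pump 2 rose and 4 fell. DMXL2, a subunit of the rabconnectin complex that helps V1 and V0 assemble, rose by 1.88 (SE 0.08, 3.67-fold), from a mean of 7.08 to a mean of 8.96. VMA22, an assembly factor of the endoplasmic reticulum, fell by 0.91 (SE 0.09), and NCOA7, which binds the pump, fell by 0.48.

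Lysosomal hydrolases had 6 of 29 higher and 8 lower. GM2A, the activator that presents GM2 ganglioside to hexosaminidase, rose 2.42-fold, ARSB, arylsulfatase B, was at least 1.88-fold lower, and SGSH, the heparan sulfamidase, fell by 0.72. Of 22 membrane and sorting genes 7 rose and 3 fell (45.5%, against 40.0% of all genes). GNPTG and GGA2 were 1.72-fold and 1.51-fold higher and MCOLN3, a relative of MCOLN1, at least 1.61-fold lower. Both GNPTG and GGA2 lie on chromosome 16, as do CLN3, CLCN7 and NAGPA, which also rose. Selective receptors had 4 of 12 higher and 1 lower: the mitophagy receptor BNIP3 rose by 0.51, OPTN, which binds ubiquitinated cargo, by 0.44, and NCOA4, the ferritin receptor, by 0.55. BNIP3L, the receptor for mitochondria in maturing red cells, is named after its value was seen. It read 9.23 and 9.80 against 10.34 and 10.14 and rose by 0.73 (SE 0.19, limma adjusted p = 0.0238).

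Nutrient-sensing genes changed both ways, with 5 of 23 Rag GTPase and mTORC1 genes higher and 5 lower (43.5%, against 40.0% of all genes). RRAGD, a Rag GTPase, fell by 0.99, NPRL3, an inhibitor of Rag signalling on chromosome 16, rose by 0.95, and SESN1, an amino acid sensor of the sestrin family, by 0.87. The median of the chromosomal neighbours of NPRL3 was 0.66. MLST8 and WDR24, also on chromosome 16, rose by 0.32 and 0.36, where their neighbours' medians were 0.48 and 0.33. RHEB, on chromosome 7, rose by 0.42, with a neighbours' median of 0.56. The part of these shifts was not tested. Of 8 TFEB relatives and regulators 1 rose and 2 fell: MITF rose by 0.50, TFE3 fell by 0.49, and PPP3CB, a calcineurin catalytic subunit, fell by 0.79. Of 14 fusion genes 0 rose and 3 fell, the SNARE genes VAMP7 and VAMP8 by 0.92 and 0.33 and the tether gene EPG5 by 0.44. Of 10 genes around the class III lipid kinase 1 rose and 2 fell, WDR45, a WIPI relative, by 0.59 and the scramblase VMP1 by 0.40, while TMEM41B rose by 0.29. None of 8 genes of the ULK complex and nutrient kinases passed; the nearest was PRKAG1 at -0.24 (limma adjusted p = 0.0598).

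**Figure D5:**
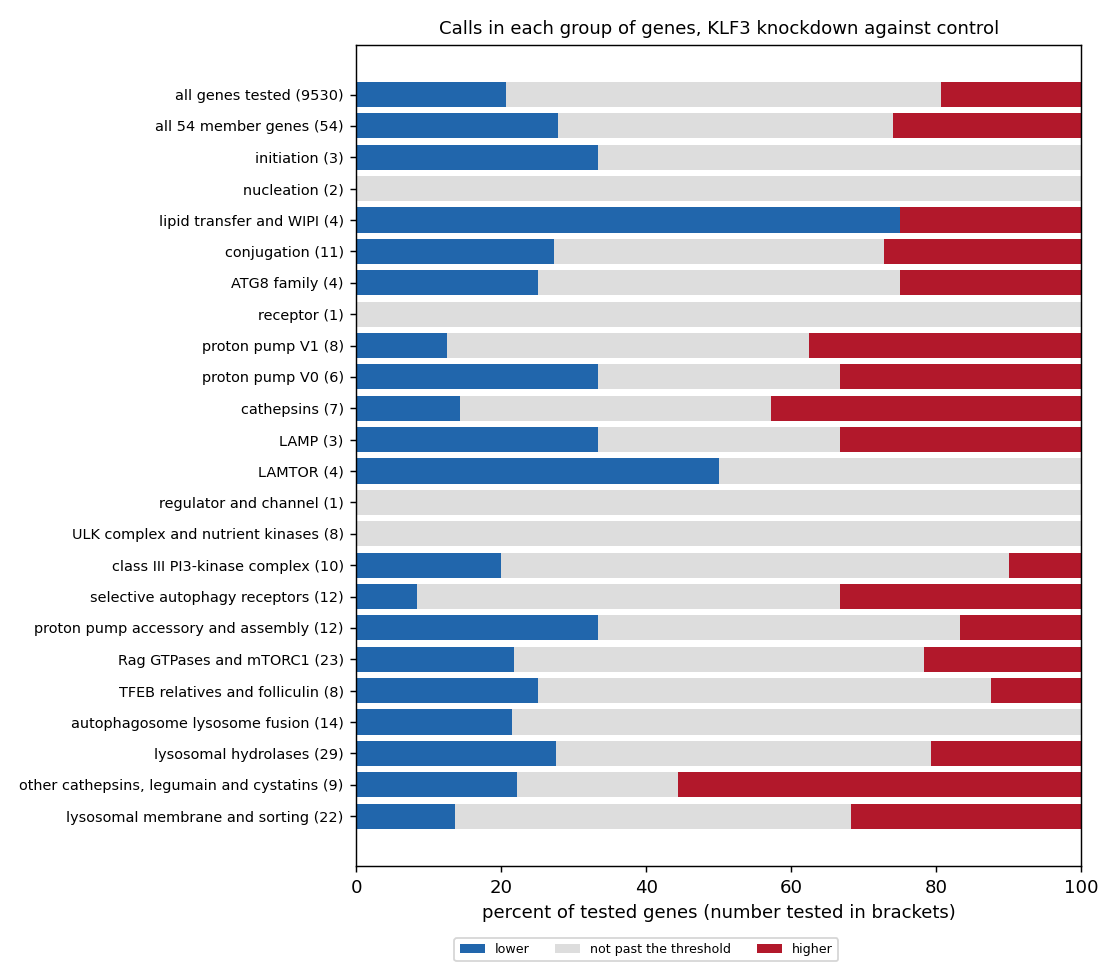
Percent of tested genes that were lower (blue), did not pass (grey) or were higher (red) in the KLF3 knockdown line, for all 9530 genes, for the 54 genes described here, for each of their roles and for 10 lists of related genes, with the number tested in brackets. Groups of 1 to 4 genes cannot be read as shares.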

How the data were processed

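Gene expression was measured on 4 Illumina bead arrays, 2 from K562 cells with a control hairpin and 2 from K562 cells with a hairpin against KLF3. Trizol was used for RNA and an Illumina kit for the biotin label, per the labels' protocols. The deposited scanner table gave, per the file headers, 47322 probes with a mean bead intensity and a detection p-value each. A second deposited table held the authors' processed intensity values, quantile-normalized as judged from the values; the sources used here do not name the software.

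The neqc function (limma 3.58.1, R 4.3.3, offset 16) then corrected background, quantile-normalized and gave log2 values. The offset draws changes of dim genes towards 0. Without background correction some were smaller still, as for WIPI1 (log2 difference -0.20, against -0.60 in the main fit). Kept probes had a detection p below 0.01 on both arrays of 1 group or more, and the brightest probe stood for its gene. Of the probes 30112 had 1 symbol, 8 several and 17202 were not listed in the annotation; 30073 of the probes with 1 symbol were matched by gene ID to GRCh38.p14 names. The groups were compared in 1 limma model over 9530 genes without covariates (two-sided, 2 residual degrees of freedom, Benjamini-Hochberg threshold 0.05). With 2 against 2 arrays, the smallest exact permutation p is 0.333. Standard errors come from limma. The number of arrays limits the precision.

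Members, role groups and lists were chosen with earlier results of these data known. Every changed member is named, and ULK1, BECN1, SQSTM1, TFEB and MCOLN1 are given whatever they did. For each list of related genes up to 3 genes with the smallest adjusted p are named. BNIP3L and some genes named for their chromosomal position are given besides. Alternatives changed the background correction, scaling, source of values, filter, choice of probe, variance prior, arrays and block.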

Additional observations from a re-analysis of the deposited data

How the results depend on the processing

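Of the 29 changed genes 28 kept their call without background correction, with the authors' processed values and with an intensity trend, 28 with the mean of each gene's probes, 21 with median scaling, 15 without the detection filter and 25 with the replicate block. The first 3 of these settings each gave 16 members higher and 16 lower, with ATG3, ATG4A, GABARAPL1 and SQSTM1 passing besides. GABARAPL1 also passed without knockdown replicate 1 and with detection required on all arrays. Without background correction 7 changed genes moved by over 1.5 times, all towards 0 (ATG16L2, ATG4D, ATG5, CTSZ, LAMP3, WIPI1 and WIPI2), and the same 7 did with the authors' processed values. Requiring detection on all 4 arrays left 27 of them, and all 27 passed. Median scaling gave 7 members and 20 related genes higher (15 and 36 lower), and 1286 genes higher against 2150 lower over all genes, whose median was then -0.08. Without the detection filter, which tests 20045 genes, 8 members rose and 7 fell, 18 and 15 related genes, and 1189 and 1209 of all genes. The mean of probes moved the members' median log2 fold change to 0.0073. Leaving out 1 array in turn (a lone array was taken to vary like the other group) gave 4 to 11 members higher and 4 to 12 lower, 11 to 26 and 12 to 25 related genes, 902 to 1612 and 884 to 1828 of all genes, and members' medians from -0.0695 to -0.0039. With the mean of probes the sign of ATG16L1 (-0.0675), CTSC (0.14), GABARAPL2 (0.16), LAMP2 (0.15) and LAMTOR3 (0.0280) turned, and with median scaling that of ATG14 (-0.0131). With 1 array left out in turn the values crossed zero, from -0.0145 to 0.186 for ATG14, -0.0208 to 0.160 for ATG16L1, -0.0973 to 0.0153 for CTSC, -0.0557 to 0.0290 for GABARAP and -0.109 to 0.0712 for LAMP2. Of all genes whose sign turned only GABARAPL2 had passed, and its probes disagree. In other cases the cause was not tested. With the replicate block 12 members rose and 13 fell. ATG9A (limma adjusted p = 0.068), WIPI2 (0.0611), ATP6V1D (0.0538) and ATP6V1E1 (0.0748) no longer passed. Over all tested genes, deviations of same-numbered arrays from their group means had a correlation of -0.0060. That value cannot show whether same-numbered arrays shared a run, and the labels do not say. TFEB and KLF3 sat at background, which limits what can be said of them.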
